A study of Homo sapiens with 4 samples.

Results

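Collagen chain genes were taken as all rows of the deposited expression table whose gene name has the form COL, a number, A and a number. There were 40 such rows among 37810, each with 1 intensity per array, and a row was called expressed on an array above a fixed limit, which lay 2.73 to 2.81 background SDs above the background mode of the arrays. In intensity, the limit fell between the collagen values of 124.7 and 125.5. RNA was measured in 2 human breast epithelial lines, 48 h after transfection with 20 nM of control siRNA or FOXF2 siRNA. The lines were MCF10A, immortalized breast epithelial cells that do not form tumours, and MDA-MB-231, which comes from a metastatic breast cancer. Each of the 4 combinations of line and siRNA held 1 Illumina array, and all 4 cultures were transfected, so no untransfected level was measured. FOXF2 is a forkhead transcription factor of mesenchymal tissues, and its siRNA was used to find the genes that it regulates in each line.

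Collagens are the main structural proteins of the extracellular matrix. Each molecule is a triple helix of alpha chains, built from glycine-rich repeats and stabilized by hydroxylated prolines. Fibrillar collagens form the fibres of stroma, type IV collagens form the sheet of the basement membrane on which mammary epithelium rests, and types VII and XVII anchor basal epithelial cells to that sheet. Other classes form beaded filaments, decorate fibrils, or span the plasma membrane.

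Values below are given in the order control siRNA, then FOXF2 siRNA. FOXF2 itself had intensities of 241 and 143 in MCF10A and of 259 and 123 in MDA-MB-231. It was lower with its own siRNA in each line, and the last value was under the limit. Between 34.1% and 34.3% of all rows were above the limit on each array. Of 7 epithelial marker rows, 6 were above the limit on both MCF10A arrays and 4 on both MDA-MB-231 arrays, and their summed intensity was 11556 and 11775 against 2135 and 2684. In the comparison of the lines described below, 4 of these 7 rows were called lower in MDA-MB-231 and 2 higher. Of all rows tested, 6.61% were called lower there and 6.40% higher. The basal keratins KRT5 and KRT14 and the epithelial cadherin CDH1 were at or below the limit there, and TACSTD1 was lower. The simple-epithelial keratins were higher or not called: KRT19 had 79.13 and 116.9 in MCF10A and 634.3 and 980.9 in MDA-MB-231, KRT8 was called higher (1.44), and KRT18 was not called. Of 8 mesenchymal or fibroblast marker rows, 5 and 6 were above the limit in MCF10A and 2 and 4 in MDA-MB-231, for control and FOXF2 siRNA. Their summed intensities were 9602, 9759, 20164 and 14544 in the same order, and most of each sum was vimentin (VIM), which was called higher in MDA-MB-231 (1.11). DCN, ACTA2 and FAP were called lower there. Both MDA-MB-231 values of DCN and of FAP were under the limit. In deposited intensity DCN was 5.39-fold lower and FAP 3.16-fold lower. With the dim values set at the limit, they were at least 4.26-fold and 2.46-fold lower. ACTA2 differed by -3.53 on the background-corrected log2 scale, or -2.3 without background correction. The median of the 6 tested rows was -1.95 on the background-corrected log2 scale. With FOXF2 siRNA, 2 of 6 such rows passed 1.5-fold in MCF10A, both higher, beside 14.1% of all rows past 1.5-fold and 7.67% higher. DCN had 333.4 and 852.5, and ACTA2 521.6 and 863.3. In MDA-MB-231 0 of 4 such rows passed. The blood markers PTPRC and CD3E and the endothelial markers CDH5 and VWF were at or below the limit on all 4 arrays. Of the other markers in these lists, PECAM1 was above it on all 4 arrays, at 141.6 to 190.2, and CD14 had 535.1 and 692.3 in MCF10A and 127.9 and 115.4 in MDA-MB-231. The part of these markers in the collagen differences below was not tested. In these bulk RNA samples, fewer cells that express a gene and less RNA per cell cannot be told apart.

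Of the 40 collagen rows, 24 were above the limit on at least 1 array, or 60%, against 48.8% of all rows. On single arrays 16 and 15 collagen rows were above it in MCF10A, and again 16 and 15 in MDA-MB-231. There were 9 rows above the limit on all 4 arrays, or 22.5%, against 25.4% of all rows. Another 2 (5%) were above it on both MCF10A arrays and on no MDA-MB-231 array, against 1.82% of all rows, and 3 (7.5%) on both MDA-MB-231 arrays and on no MCF10A array, against 1.83%. A further 7 rows (17.5%, against 14.4%) were above it on 1 array only, at intensities of 126.9 to 168.5. Just under the limit lay COL9A1 at 124.7 and COL25A1 at 124.1, both in MDA-MB-231, and just above it COL20A1 at 125.5 in MDA-MB-231 and COL6A1 at 126.8 in MCF10A.

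The 16 rows at or below the limit on every array had intensities of 86.05 to 124.7. They included the chains of the main stromal fibres, COL1A1, COL1A2 and COL3A1, and the other fibrillar chains COL5A3, COL11A1, COL11A2 and COL27A1. The others were COL4A3, COL4A4, COL9A1, COL10A1, COL19A1, COL21A1, COL22A1, COL23A1 and COL25A1. Their levels in these lines cannot be ordered, since such values are near the background of the arrays.

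**Figure D1:**
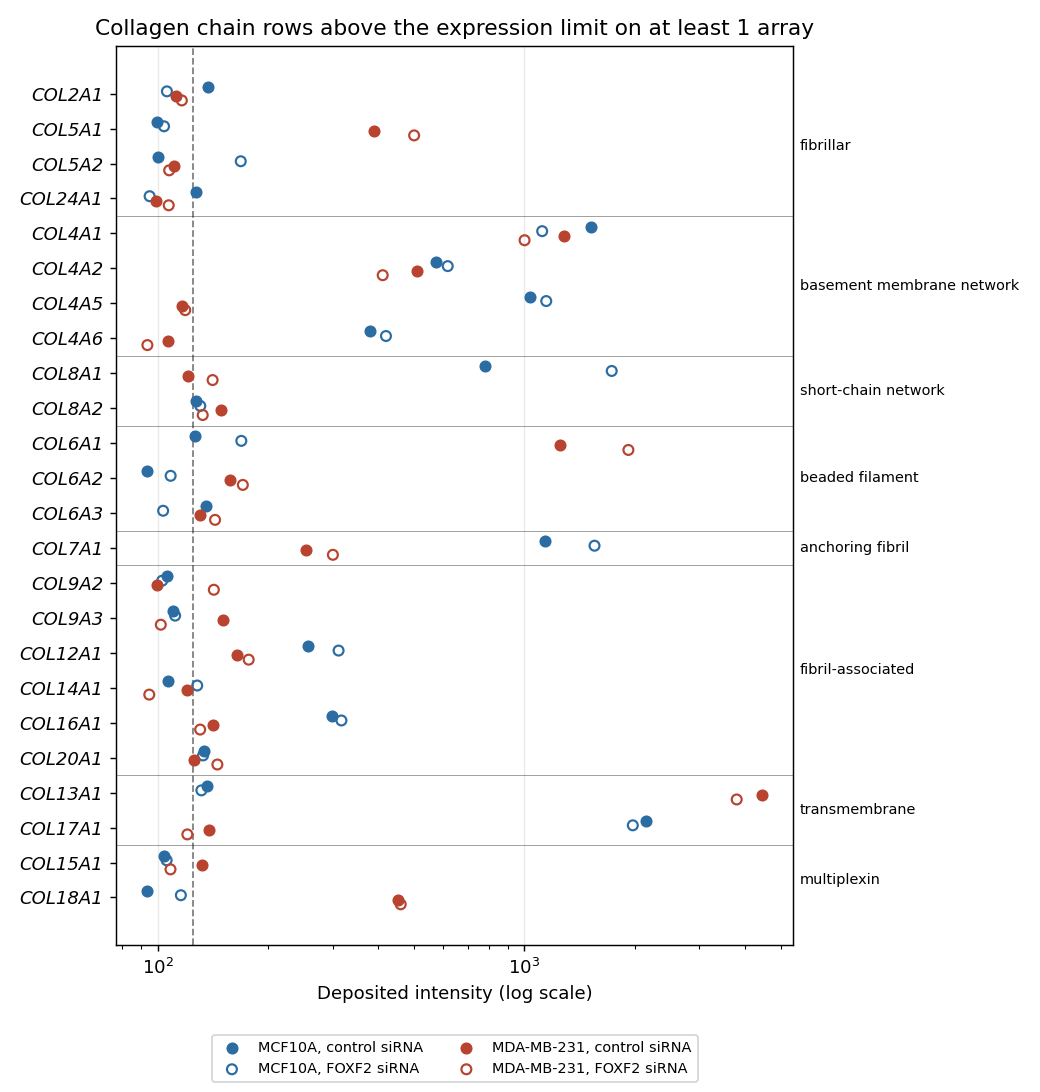
Deposited intensity (x axis, log scale) of the 24 collagen rows above the limit on at least 1 of 4 arrays, grouped by structural class. Each point is 1 array, filled for control siRNA and open for FOXF2 siRNA, in blue for MCF10A and red for MDA-MB-231; the dashed line is the limit. COL4A5, COL4A6, COL8A1 and COL17A1 lie far to the right in MCF10A, and COL5A1, COL6A1, COL13A1 and COL18A1 in MDA-MB-231.

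To compare the lines, all rows above the limit on at least 1 array were fitted with limma on background-corrected log2 values, in a model of line plus siRNA. A difference was called at an adjusted p under 0.05 and at least 2-fold. Of the 24 collagen rows tested, 12 were called, or 50%, beside 13.0% of all 18434 rows tested. COL13A1, COL6A1, COL5A1, COL18A1 and COL6A2 were higher in MDA-MB-231, and COL17A1, COL4A5, COL8A1, COL4A6, COL7A1, COL16A1 and COL12A1 were lower. Over all rows tested, 6.40% were called higher and 6.61% lower in MDA-MB-231. The median difference of the 24 rows was -0.23, against 0.03 over all rows tested. Rows above the limit in 1 line only entered the test by being brighter there, so they were partly chosen for a line difference. Among the 9 collagen rows above the limit on all 4 arrays, 5 were called, beside 14.4% of the 9610 such rows. The size of a difference depended on the background correction, which widens the differences of dim values. The value without it is therefore given too. Where both arrays of a line were under the limit, the fold is given in deposited intensity, and "at least" means that the dim values were set at the limit. The call and the adjusted p beside such a fold are still those of the background-corrected values. The labels name no separate cultures, and each group held 1 array. The spread behind the p-values is therefore how far the siRNA difference varied between the lines. It may be technical or hold siRNA responses particular to a line, which cannot be told apart. That spread was taken by limma wholly from rows of similar brightness. With each row's own spread, in limma without eBayes, 0 collagen rows and 0 of all rows were called. On that setting 11 of the collagen rows had an unadjusted p under 0.05 and a 2-fold difference. The share over all rows was not counted for this cut, so no result is drawn from it.

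The basement membrane chains were compared by gene pair. The type IV genes lie in head-to-head pairs that share the short stretch between their starts: COL4A1 with COL4A2 on chromosome 13, COL4A3 with COL4A4 on chromosome 2, and COL4A5 with COL4A6 on the X chromosome. In RefSeq (GRCh38.p14), 126, 135 and 379 bases separate the annotated genes of these pairs. The stretches of the 2 pairs that were expressed are shown because members of a pair were found together in the same lines. They are printed 5′ to 3′ in lower case, with capitals at matches, on either strand, to the CCAAT box, to the GC box GGGCGG, to the TATA box TATAAA and to TGTTTA, a core of many forkhead sites.
COL4A1 to COL4A2, the whole stretch between both starts, chr13:110307158-110307283, plus strand: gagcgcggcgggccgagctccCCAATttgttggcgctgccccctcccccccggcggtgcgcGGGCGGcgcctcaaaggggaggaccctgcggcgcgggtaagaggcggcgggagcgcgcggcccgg
COL4A5, the 250 bases before its start, chrX:108439588-108439837, plus strand: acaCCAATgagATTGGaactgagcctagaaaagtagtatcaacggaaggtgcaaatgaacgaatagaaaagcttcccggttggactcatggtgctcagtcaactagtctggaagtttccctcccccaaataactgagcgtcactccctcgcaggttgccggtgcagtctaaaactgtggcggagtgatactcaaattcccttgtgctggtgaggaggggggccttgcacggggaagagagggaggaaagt
COL4A6, the 250 bases before its start, chrX:108439459-108439708, minus strand: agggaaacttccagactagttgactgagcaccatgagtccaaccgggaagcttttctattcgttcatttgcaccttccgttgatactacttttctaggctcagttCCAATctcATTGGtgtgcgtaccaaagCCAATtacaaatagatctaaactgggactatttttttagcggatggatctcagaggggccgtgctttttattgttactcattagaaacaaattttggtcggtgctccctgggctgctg
The COL4A5 and COL4A6 windows share 121 bases, and a pair of facing CCAAT matches lies in the shared part. The COL4A6 window shown holds no GGGCGG, but another RefSeq start window of that gene does. CCAAT was found on either strand in 32% of all 35116 RefSeq start windows of the same length and GGGCGG in 42.6%. A match describes letters only and is not a measured site.

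COL4A1 and COL4A2, the ubiquitous chains of the basement membrane, were expressed on all 4 arrays. COL4A1 had intensities of 1523 and 1118 in MCF10A and 1283 and 1001 in MDA-MB-231. COL4A2 had 573.9 and 617.9 in MCF10A and 510.5 and 410.8 in MDA-MB-231. The ranges of the lines overlapped for COL4A1 and lay close for COL4A2. The line differences on the log2 scale, MDA-MB-231 minus MCF10A, were -0.22 (SE 0.20, limma adjusted p = 0.559) and -0.46 (SE 0.22, adjusted p = 0.145), so neither was resolved.

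COL4A5 and COL4A6, whose chains assemble together in the basement membranes of some epithelia, were expressed in MCF10A only. COL4A5 had 1033 and 1147 in MCF10A and 116.4 and 118.9 in MDA-MB-231. COL4A6 had 380.3 and 419.3 in MCF10A and 106.6 and 93.77 in MDA-MB-231. All 4 MDA-MB-231 values of the pair were under the limit, and no value of 1 line reached those of the other. In deposited intensity COL4A5 was 9.25-fold lower in MDA-MB-231, and at least 8.71-fold against the limit (limma adjusted p = 4.41e-79). COL4A6 was 3.99-fold lower, and at least 3.19-fold (adjusted p = 8.6e-31). The remaining pair, COL4A3 and COL4A4, was at or below the limit on every array, at 92.01 to 118.3 and 96.53 to 106.7. On each of the 4 arrays, both members of a pair lay on the same side of the limit. Of all rows, 51.2% were above the limit on no array and 25.4% on all 4. Another 1.82% were above it on both MCF10A arrays and on no MDA-MB-231 array. How often any pair of rows lies on the same side was not counted, so no result is drawn from this.

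**Figure D2:**
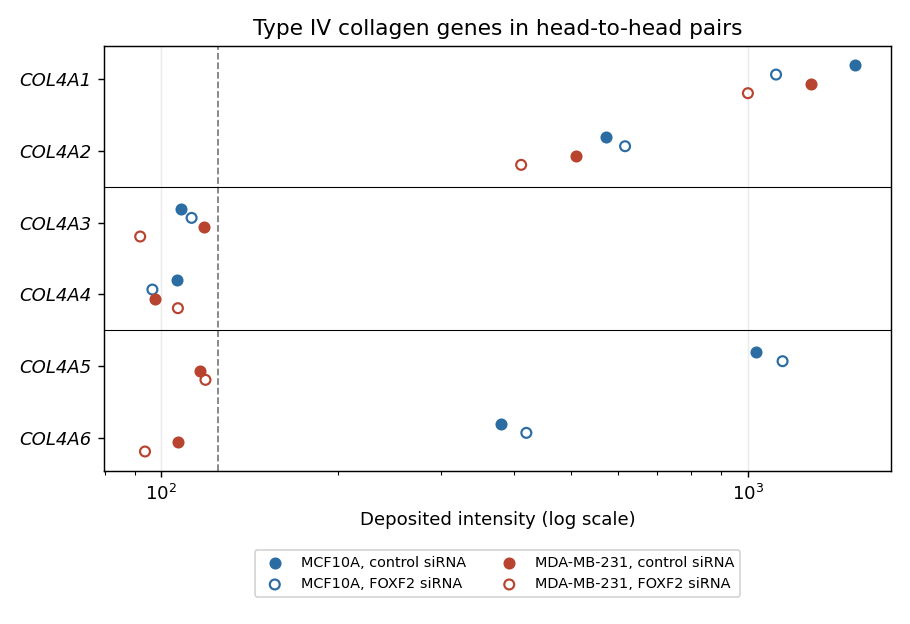
Deposited intensity (x axis, log scale) of the 6 type IV collagen rows on each of 4 arrays, with horizontal lines between the head-to-head gene pairs and the dashed line at the limit. COL4A1 and COL4A2 are above the limit on all 4 arrays, COL4A3 and COL4A4 on none, and COL4A5 and COL4A6 on both MCF10A arrays only.

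The chains that anchor basal epithelium were lower in MDA-MB-231. COL17A1, the transmembrane collagen of hemidesmosomes, had 2146 and 1975 in MCF10A and 138.2 and 120.5 in MDA-MB-231. Its log2 difference between lines was -5.55 (SE 0.24, limma adjusted p = 7.99e-116), or -4.00 without background correction, and the MDA-MB-231 value with FOXF2 siRNA was under the limit. COL7A1, which forms the anchoring fibrils beneath the basement membrane, had 1138 and 1553 in MCF10A and 253.6 and 300.5 in MDA-MB-231, a difference of -2.71 (SE 0.22, adjusted p = 6.81e-33), or -2.27 without background correction. COL7A1 was therefore still expressed in the cancer line, at a lower level, whereas COL17A1 was near the limit there.

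COL13A1, a transmembrane collagen of cell-matrix adhesions, showed the reverse of COL17A1. Its intensities were 136.5 and 131.6 in MCF10A and 4457 and 3792 in MDA-MB-231. The difference of 6.41 (SE 0.22, limma adjusted p = 5.33e-174) was the largest among the 24 rows, in either direction, and was 4.94 without background correction. Both genes lie on chromosome 10, and the bases before their starts are shown because they had the largest differences upward and downward.
COL13A1, the 250 bases before its start, chr10:69801656-69801905, plus strand: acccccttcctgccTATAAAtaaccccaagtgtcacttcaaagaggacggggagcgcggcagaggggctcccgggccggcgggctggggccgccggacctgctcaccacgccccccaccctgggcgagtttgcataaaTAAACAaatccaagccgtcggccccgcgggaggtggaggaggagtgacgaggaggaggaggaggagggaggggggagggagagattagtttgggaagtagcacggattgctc
COL17A1, the 250 bases before its start, chr10:104085881-104086130, minus strand: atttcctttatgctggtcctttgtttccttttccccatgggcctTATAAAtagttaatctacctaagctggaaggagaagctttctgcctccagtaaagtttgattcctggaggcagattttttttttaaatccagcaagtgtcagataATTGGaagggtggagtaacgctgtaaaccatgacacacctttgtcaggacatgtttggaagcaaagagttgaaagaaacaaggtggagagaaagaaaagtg
Both windows hold 1 TATAAA, which is present in 10.7% of all windows, and COL13A1 holds 1 TAAACA, the reverse complement of TGTTTA, which is present in 11% of all windows. Among the 29 collagen members with a window, TGTTTA was found for COL13A1 and COL9A1.

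The beaded-filament chains of type VI collagen form a microfibril around cells from COL6A1, COL6A2 and a further chain such as COL6A3. COL6A1 had 126.8 and 169.1 in MCF10A and 1250 and 1921 in MDA-MB-231, a difference of 4.67 (SE 0.24, limma adjusted p = 1.44e-82), or 3.40 without background correction. COL6A2 had 93.4 and 108.5 in MCF10A and 157.4 and 170.7 in MDA-MB-231, and was called higher there on the background-corrected scale (limma adjusted p = 0.00164). In deposited intensity it was 1.63-fold higher, under 2-fold, and at least 1.31-fold against the limit. COL6A3 had 135.6 and 103.5 in MCF10A and 130.2 and 143.4 in MDA-MB-231, so that its lines overlapped and it was not called (0.58, SE 0.49, adjusted p = 0.513). The COL6A2 call was lost without either MDA-MB-231 array, at adjusted p = 0.0705 without the control and 0.125 without the FOXF2 siRNA array. With an offset of 50 its difference of 0.98 was under 2-fold, as was 0.70 without background correction.

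COL18A1, a multiplexin of basement membranes whose end fragment is endostatin, had 93.56 and 115.7 in MCF10A and 453.4 and 460.0 in MDA-MB-231. It was 4.39-fold higher in MDA-MB-231 in deposited intensity, and at least 3.65-fold (limma adjusted p = 9.16e-36), and both MCF10A values were under the limit. COL18A1, COL6A1 and COL6A2 lie within 728 kb of chromosome 21 (GRCh38.p14), with gaps of 468 kb and 93 kb between them. All 3 were called higher in MDA-MB-231. Other genes of this stretch were not examined, and a shared cause was not tested. The other multiplexin, COL15A1, was above the limit on the MDA-MB-231 control array alone, at 131.9.

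Among the 11 fibrillar rows, COL5A1 was called between lines. This chain of type V collagen, which sets the width of stromal fibrils, had 99.42 and 104.1 in MCF10A and 387.8 and 500.4 in MDA-MB-231. In deposited intensity it was 4.33-fold higher in MDA-MB-231, and at least 3.52-fold (limma adjusted p = 3.22e-35). Its usual partner COL5A2 was not expressed there, at 110.6 and 107.5, and had 100.5 and 168.5 in MCF10A. COL2A1 and COL24A1 were each above the limit on the MCF10A control array alone, at 137.1 and 126.9.

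The short-chain collagen COL8A1, a network former best known from vessel walls and the eye, had 782.1 and 1730 in MCF10A and 121.0 and 141.2 in MDA-MB-231, a difference of -4.61 (SE 0.25, limma adjusted p = 4.68e-73). It was -3.15 without background correction and -3.82 with an offset of 50, and the MDA-MB-231 control value was under the limit. Its partner chain COL8A2 stayed between 127.2 and 149.2 on all 4 arrays, barely above the limit, and was not called (0.35, SE 0.44, adjusted p = 0.687). Of the fibril-associated chains, COL16A1 had 298.1 and 317.0 in MCF10A and 141.2 and 130.6 in MDA-MB-231, a difference of -2.16 (SE 0.30, adjusted p = 6.24e-12), or -1.18 without background correction. COL12A1, which binds the surface of type I fibrils, had 257.5 and 311.4 in MCF10A and 164.6 and 177.1 in MDA-MB-231, a difference of -1.22 (SE 0.28, adjusted p = 0.000122). The COL12A1 call was lost without the MCF10A FOXF2 siRNA array (adjusted p = 0.0535) and without a trend in limma (adjusted p = 0.0597), and at -0.73 without background correction it was under 2-fold. The 12 tested rows that were not called had differences of -0.72 to 0.58 with SEs of 0.20 to 0.77, so that differences of that size could not be resolved for the dim ones.

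The line difference was also taken within the control arrays and within the FOXF2 siRNA arrays. For the 12 called rows these differences lay 0.07 to 0.59 apart on the log2 scale, with no change of direction. Each call rested on the mean of these same differences. A shared direction was therefore largely fixed by the call and is no separate support.

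**Figure D3:**
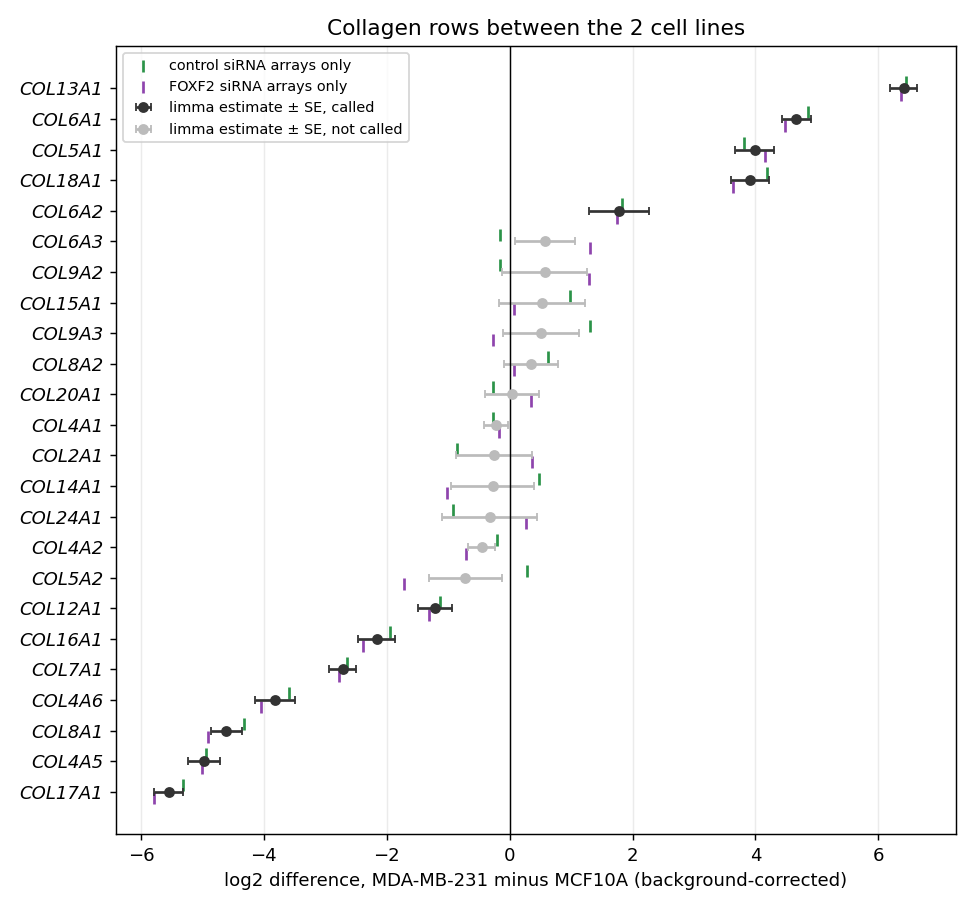
Background-corrected log2 difference, MDA-MB-231 minus MCF10A (x axis), for the 24 collagen rows tested. Points with bars are limma estimates ± SE over 4 arrays (dark, called; grey, not called), and ticks are the differences within control siRNA arrays and within FOXF2 siRNA arrays, 1 array per line; for rows not above the limit in a line, the estimate depends on the background correction. The estimates run from -5.55 for COL17A1 to 6.41 for COL13A1, and the ticks of the called rows lie on the same side of 0. Each estimate is the mean of its ticks, so the ticks are no separate support for a call.

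With FOXF2 siRNA, COL8A1 in MCF10A and COL6A1 in both lines were the collagen rows with the largest upward differences among those above the limit on both arrays of a line. Differences of at least 1.5-fold on the background-corrected scale were counted in each line, without a test, since each group held 1 array. A value under the limit was set at the limit for this count. In MCF10A 3 of 18 rows above the limit on at least 1 array passed, all higher, or 16.7%, beside 14.1% of all rows past 1.5-fold and 7.67% higher. In MDA-MB-231 2 were higher and 1 lower of 18, again 16.7%, beside 13.7% of all rows past 1.5-fold, with 6.81% higher and 6.91% lower. Both shares were near the background, so the collagen rows as a group gave no result in either line. The median difference of the rows above the limit on both arrays was 0.13 for 13 rows in MCF10A and 0.21 for 13 rows in MDA-MB-231, against -0.01 and 0.00 over all such rows.

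COL8A1 was higher in MCF10A, at 1730 against 782.1, a difference of 1.24 on the log2 scale. In MDA-MB-231 it had 121.0, under the limit, and 141.2, or 1.17-fold higher in deposited intensity. The mesenchymal markers DCN and ACTA2 were also higher in MCF10A with FOXF2 siRNA, 2.56-fold and 1.66-fold in deposited intensity beside 2.21-fold for COL8A1. The other markers of that list above the limit there did not pass 1.5-fold. FAP, PDGFRA and PDGFRB were 1.05-fold, 1.08-fold and 1.13-fold higher, and VIM was 1.1-fold lower. The part of these markers in the COL8A1 difference was not tested. In limma over both lines the COL8A1 difference was 0.95 (SE 0.25), higher in 2 of 2 lines, and missed the threshold (adjusted p = 0.057). That p was 0.0294 without background correction, 0.0137 with the limit at 150 and 0.873 without a trend, so the call depended on the setting. COL8A1 is measured by 3 probes of the array, which the deposited table gives as 1 value.

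COL6A1 was higher with FOXF2 siRNA in both lines. In MDA-MB-231 its values were 1250 and 1921, a difference of 0.66 on the log2 scale. In MCF10A it was from 126.8 to 169.1, a difference of 1.04 that starts just above the limit and was 0.42 without background correction. Over both lines the limma difference was 0.85 (SE 0.24, adjusted p = 0.0898). That p was 0.0311 with the limit at 150, 0.304 without background correction, 0.214 with an offset of 50 and 0.873 without a trend. The partners of COL6A1 gave no like values: COL6A2 differed by 0.25 in MDA-MB-231, and COL6A3 by 0.38 there, while in MCF10A it had 135.6 and 103.5.

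The other rows past 1.5-fold had values near the limit. COL5A2 was 1.68-fold higher in MCF10A in deposited intensity (100.5 to 168.5), and at least 1.35-fold against the limit. In MDA-MB-231 COL20A1 was higher by 0.59 (125.5 to 145.5). COL9A3 was 1.48-fold lower there in deposited intensity (151.2 to 102.0), and at least 1.21-fold. Without background correction none of these 3 rows passed 1.5-fold once values were set at the limit. The remaining rows above the limit on both arrays of a line differed by -0.48 to 0.48 in MCF10A and by -0.44 to 0.46 in MDA-MB-231. The lower end in MCF10A was COL4A1, at -0.48, which was also lower in MDA-MB-231, at -0.39 (limma over both lines -0.43, SE 0.20, adjusted p = 0.739). The pair partner of COL4A1, COL4A2, differed by 0.125 in MCF10A, the other way, and by -0.387 in MDA-MB-231. COL7A1 differed by 0.48 and 0.36 in MCF10A and MDA-MB-231, and the COL4A5 and COL4A6 pair by 0.16 and 0.18 in MCF10A.

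Over both lines, no collagen row passed limma at an adjusted p under 0.05 for FOXF2 siRNA, beside 0.255% of all rows (0.152% rose and 0.103% fell), and 3 collagen rows (COL8A1, COL6A1 and COL4A1) had an unadjusted p under 0.05, beside 5.79% of all 18434 rows. Of the 9 rows above the limit on all 4 arrays, 5 had the same sign in both lines. The share over all such rows was not counted, so no result is drawn from this count. The response of COL8A1 in MCF10A was not tested against that in MDA-MB-231, since 4 arrays leave no residual degree of freedom for that difference.

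**Figure D4:**
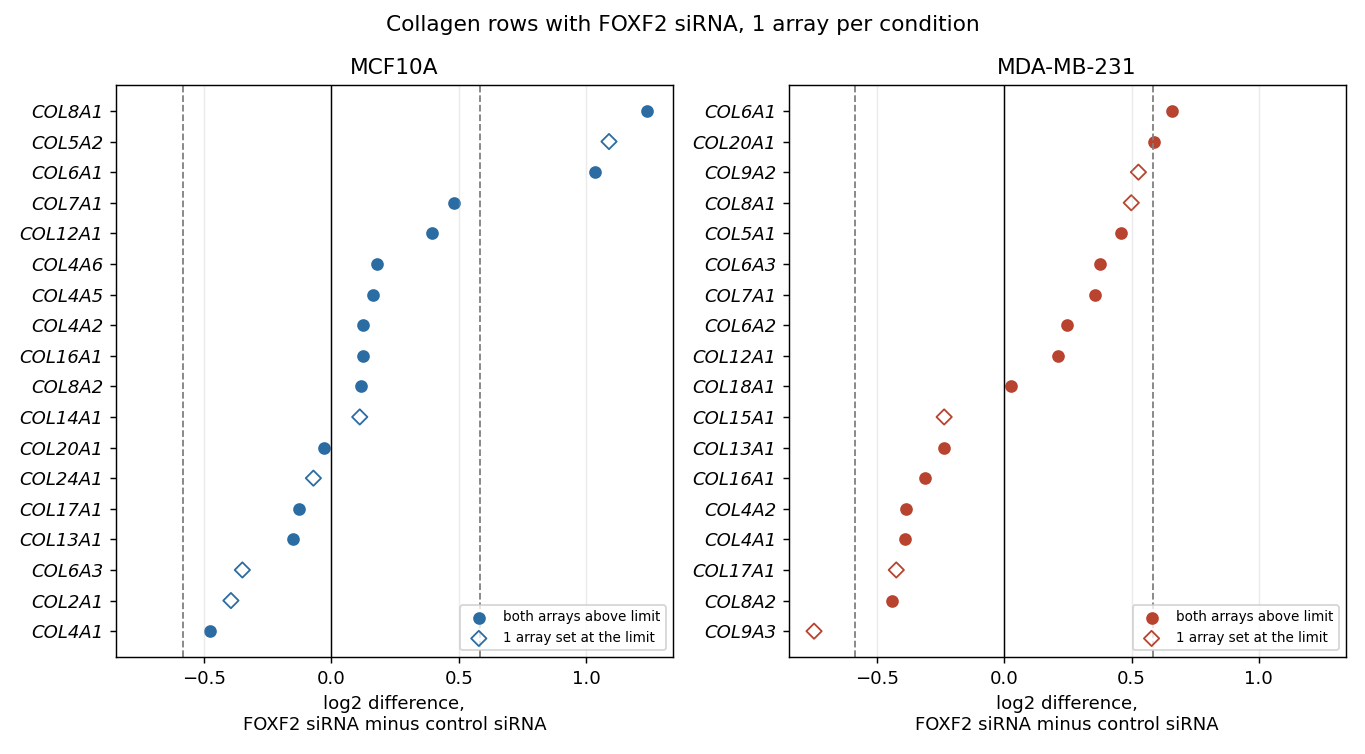
Background-corrected log2 difference of FOXF2 siRNA minus control siRNA (x axis) for collagen rows above the limit on at least 1 array of the line, with MCF10A left and MDA-MB-231 right. Filled points had both arrays above the limit, diamonds had 1 array above it, with the other set at the limit, and dashed lines mark 1.5-fold; each point rests on 1 array per condition. COL8A1, COL5A2 and COL6A1 lie beyond the upper line in MCF10A, and COL6A1 and COL20A1 in MDA-MB-231.

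The enzymes and chaperones that fold and modify collagen chains were taken as a list. Of 18 tested rows of this list, 2 were higher and 0 lower in MDA-MB-231, beside 6.40% and 6.61% of all rows tested, with a median of 0.12 against 0.03. FKBP10, a prolyl isomerase of procollagen, had 152 and 114.5 in MCF10A and 200.1 and 275.4 in MDA-MB-231 (1.75, SE 0.33, limma adjusted p = 1.1e-06). Its difference was 0.80 between the control arrays, under 2-fold. Between the FOXF2 siRNA arrays it was 2.7, with the MCF10A value under the limit. The collagen galactosyltransferase GLT25D2 had 104.7 and 92.24 in MCF10A and 162.9 and 157.3 in MDA-MB-231, at least 1.28-fold higher in deposited intensity. Without background correction both rows differed by under 2-fold. The lysyl hydroxylase PLOD3 had a difference of 0.66 and PLOD2 of -0.65, both under 2-fold. SERPINH1, the procollagen chaperone HSP47, had 1992 and 1703 in MCF10A and 1190 and 2328 in MDA-MB-231, so it was higher by 1.02 with FOXF2 siRNA in MDA-MB-231 and differed by -0.24 in MCF10A (limma over both lines, adjusted p = 0.826).

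Of 13 rows for procollagen processing and cross-linking, 7 were tested, and 2 were lower and 0 higher in MDA-MB-231, beside 6.61% and 6.40% of all rows tested. BMP1, the procollagen C-proteinase, had 162.7 and 281.5 in MCF10A and 138.6 and 150.7 in MDA-MB-231 (-1.07, SE 0.32, limma adjusted p = 0.00516). Its line difference was -0.54 between the control arrays, under 2-fold, and -1.6 between the FOXF2 siRNA arrays. With FOXF2 siRNA BMP1 was higher by 1.36 in MCF10A and by 0.30 in MDA-MB-231, and did not pass limma over both lines (adjusted p = 0.499). The lysyl oxidase LOX had 251.4 and 247.7 in MCF10A and 139.3 and 162.8 in MDA-MB-231 (-1.36, SE 0.30, adjusted p = 5.64e-05). Without background correction BMP1 and LOX differed by -0.57 and -0.73. ADAMTS3, a procollagen N-proteinase, was above the limit on 1 array, with 94.01 and 179.5 in MCF10A.

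Of 11 collagen receptor rows, 7 were tested, with 3 lower and 0 higher in MDA-MB-231, beside 6.61% and 6.40% of all rows tested. The integrin subunit ITGA10 had 329.3 and 492.8 in MCF10A and 114.5 and 108.8 in MDA-MB-231, 3.61-fold lower in deposited intensity and at least 3.22-fold against the limit. The receptor tyrosine kinase DDR1 had 350.3 and 370.9 in MCF10A and 153.8 and 161.4 in MDA-MB-231 (-1.95, SE 0.27, limma adjusted p = 2.43e-11), or -1.19 without background correction. ITGA1 was the other called row (adjusted p = 0.0403), but with 140 and 150.3 in MCF10A and 99.99 and 92.46 in MDA-MB-231 it was 1.51-fold lower in deposited intensity, and at least 1.16-fold against the limit. For FOXF2 siRNA over both lines, ITGA2, the alpha subunit of the main epithelial collagen receptor, was the 1 row of the 3 lists that was called (605.5 to 336.0 in MCF10A, 823.8 to 354.3 in MDA-MB-231, limma adjusted p = 5.45e-05). This call was lost without a trend in limma and with each row's own spread, where 0 of all rows were called for FOXF2 siRNA. The beta partner of ITGA2, ITGB1, had differences of -0.25 and -0.44.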

How the data were processed

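The intensities used were those the authors deposited in their processed table, on a linear scale, with 1 value for each gene name on each array. How they summarized probes and normalized is not given in the sources used here. Medians were 111 to 112 on all arrays and the lowest values 72.4 to 74.0, so background appeared not to be subtracted. Array number limits the precision of every value. Of 40 collagen names, 22 had 1 probe and 18 had 2 to 4 in the deposited probe list. The 8 value columns of that list match no label and were not used.

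The background of each array was the mode of values below 140 (102, SD 8.13 to 8.27), and the expression limit, set by the rule that chose the members, lay between the collagen values of 124.7 and 125.5. It was removed with limma's normexp signal estimate, 16 was added and log2 taken. Where 1 side was at or below the expression limit, it was set at the lowest value above it, and folds marked "at least" were then taken in deposited intensity; the 1.5-fold counts used the corrected scale. The fit was limma 3.58.1 in R 4.3.3 (cell line and siRNA, eBayes with a trend, Benjamini-Hochberg over all 18434 rows above the expression limit on at least 1 array, two-sided). The code was run on simulated data whose spread depended on brightness alone, as the fit assumes. That run could not test this assumption. The fit had 1 residual degree of freedom, an infinite prior and a median prior SD of 0.34. The labels name no separate cultures. All 40 names matched RefSeq symbols, and 29 had a start window.

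Named were FOXF2, all members called or past 1.5-fold, members of each class, and up to 6 genes per pathway list. COL9A1, COL25A1 and others beside the limit were named after their values were seen. Members, lists and rules were chosen with earlier results of these data known. Alternatives are given in the closing section.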

Additional observations from a re-analysis of the deposited data

Results flagged for a closer look

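COL20A1 was picked out because its difference with FOXF2 siRNA had opposite signs in the lines and passed 1.5-fold in 1 of them, while all 4 arrays were above the limit. COL4A2, COL8A2 and COL16A1 also had opposite signs there, but stayed under 1.5-fold in each line. On the log2 scale the COL20A1 difference was -0.03 for MCF10A, close to 0, but 0.59 for MDA-MB-231, where the control value of 125.5 was just above the limit. The difference between the lines was not tested. No outlying array was looked for, with 1 array per group.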

How the results depend on the processing

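The 12 collagen rows called between the lines were 10 to 12 under the other backgrounds, offset, normalization, limits, filter and trend, and 11 to 12 when each array was left out in turn with a cell line term only. They were 0 with each row's own spread. COL12A1 and COL6A2 were the 2 rows under 2-fold without background correction and with an offset of 50. For FOXF2 siRNA over both lines, the count of 0 became 1 (COL8A1) without background correction and 2 (COL8A1 and COL6A1) with the limit at 150. The 3 rows past 1.5-fold in MCF10A became 1 (COL8A1) without background correction and with the limit at 150. The 3 in MDA-MB-231 became 1 (COL6A1) without background correction, with an offset of 50 and with the limit at 150, and 0 at 2-fold. With a lower limit 31 rows, and with the limit at 150 16 rows, were expressed on at least 1 array, against 24. Differences near 0 changed sign for COL4A1 between lines without the MCF10A control array (0.021, -0.218 in full), COL20A1 between lines without the MDA-MB-231 FOXF2 siRNA array (-0.256, 0.039 in full) and COL4A6 for FOXF2 siRNA with an offset of 50 (0.028, -0.044 in full). The cause was not tested. No paired analysis was possible because the labels give no replicate numbers; cell line was already a term of the siRNA fit. Signal over background limits the dim rows: 23 of the 62 collagen values above the limit were at or below 150.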

Other observations

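LAIR1, an inhibitory collagen receptor known from leukocytes, had intensities of 12330 and 13930 in MCF10A and 13260 and 12590 in MDA-MB-231. The leukocyte marker PTPRC was at 104.7 and 101.7 and at 92.16 and 114.5 on the same arrays, under the expression limit. Which sequence gives the LAIR1 signal was not tested.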
